A study of Homo sapiens with 6 samples.

Results

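The circadian clock genes examined here are 10 genes of the transcription loop that times daily rhythms: the activators CLOCK and ARNTL, the repressors PER1, PER2, PER3, CRY1, CRY2, CIART and NR1D1, and the output factor DBP. They were followed in AC16 cells, an established human line obtained when ventricular cardiomyocytes of adult heart were fused to fibroblasts carrying SV40. Messenger RNA libraries were made from 3 samples given the fatty acid called PA and 3 given ethanol, the vehicle (control), all labelled as wild type. The title of the series names palmitic acid, while the treatment label of the PA libraries reads Palmitelaidic Acid, so the abbreviation is kept. The labels used here state no dose, exposure time, hour of harvest or step that set the cells to a common phase. Nor do they say whether replicates were grown apart, so p-values measure the scatter of these 6 libraries alone, which could be technical.

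The rule took table rows whose gene name equals one of the 10 symbols, and 9 genes were found this way among 29638 rows. No row is named PER1. The row with the Ensembl identifier ENSG00000179094, which the GENCODE 29 annotation and the gene name table pair with PER1, carries the name AC129492.1 in the files, and its values are given here as those of PER1. Names differed from GENCODE 29 in 546 of the 28380 rows whose identifier is in it. That count takes in any difference of name, not this kind alone. The labels do not say which transcripts the authors counted for that row, so the values of PER1 are tied to the identifier alone.

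In the mammalian clock, CLOCK and ARNTL (also called BMAL1) pair and switch on genes that carry an E-box in their control regions. The PER and CRY proteins made from such genes return to the nucleus and silence the pair, while NR1D1 represses ARNTL through ROR elements, and DBP drives a further set of genes through D-boxes. In heart muscle cells this loop times fuel use and ion channel genes. Clocks of single cells in culture drift apart unless serum, glucocorticoid or a similar signal resets them, and a bulk library averages over all phases.

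DBP was the one clock gene that passed the test (limma adjusted p = 0.0457), and it did not pass in any fit that left out 1 library. It rose to 4.43 ± 0.573 RPKM in PA libraries, against 2.42 ± 0.382 RPKM in control libraries (SD, n = 3 each), which is 1.83-fold. PER1 and NR1D1 had positive fold changes and CLOCK and CRY1 negative ones that did not pass the test, and PER2, PER3, CRY2, CIART and ARNTL lay close to 0. RPKM are read numbers scaled to transcript length and to the reads of the library, so they can be set side by side between genes. Differences of log2(RPKM + 1) were tested with limma in the 14159 genes that averaged 1 RPKM or more, and all 10 clock genes were above that limit. A call means an adjusted p at or under 0.05. Of all genes tested, 4.81% were called, 2.84% as higher and 1.97% as lower in PA, and 1 of the 10 clock genes was called, as higher. One call among so few genes is near that background and is no result about the clock genes as a set.

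**Figure D1:**
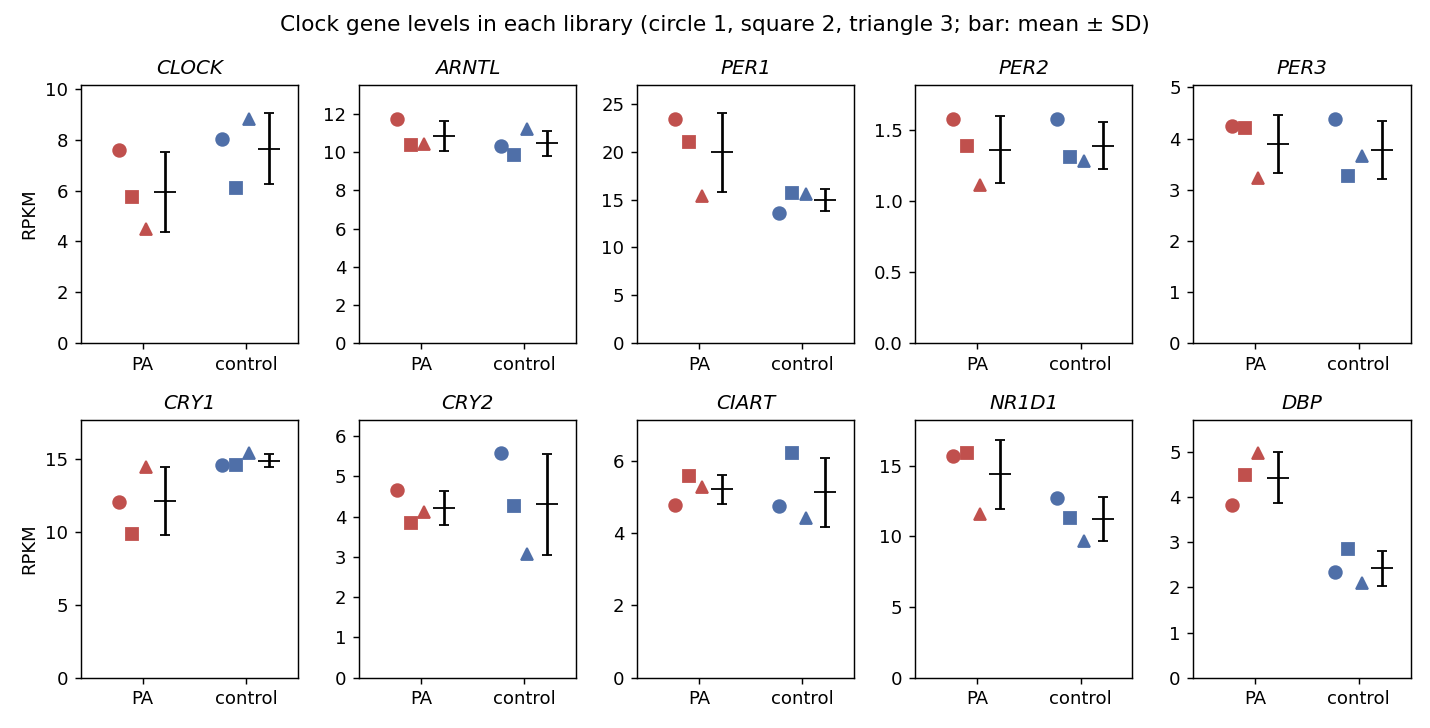
RPKM of each clock gene in every library, with PA on the left and control on the right of each panel; symbols mark the library number and the bar gives the mean ± SD over 3 libraries. The panels of DBP and CRY1 are the ones in which the groups do not overlap, with DBP between 3.83 and 4.97 RPKM in PA and between 2.09 and 2.84 RPKM in control.

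Libraries summed to between 733025 and 881369 RPKM, which is not a read depth; the depth behind the values is unknown. The labelled cell type was checked against markers. Of 12 cardiomyocyte markers, 10 had a row and TNNI3 was the one above 1 RPKM on average, and the highest value in any library was 0.06 RPKM for MYH6, 0.02 RPKM for MYH7 and 0.15 RPKM for TNNT2, so the defining markers were at or near 0. The 10 summed to between 3.74 and 4.69 RPKM in PA and between 1.24 and 3.23 RPKM in control. TNNI3 was called as higher (1.18), at 3.32, 3.99 and 2.6 RPKM in PA libraries and 0.61, 1.39 and 0.74 RPKM in control libraries. It averaged under 1 RPKM in control, so it entered the test only through its PA values. Fibroblast markers were measured in 9 of 9 rows and summed to between 351.1 and 542.6 RPKM in PA, against 581.9 to 685.2 RPKM in control. Most of that sum was COL1A1 and THY1. COL1A1 was at 80.2 to 177.7 RPKM in PA and 272.2 to 327.7 RPKM in control and not called (-1.18, limma adjusted p = 0.051). THY1 was at -0.11, not called. COL3A1 and FAP were called as lower, and COL1A2 was at 0.18, not called. COL3A1 was at 0.95 RPKM or less in PA and at 3.53 to 3.98 RPKM in control, so it entered the test only through its control values. Endothelial markers summed to between 10.1 and 12.2 RPKM in PA and between 6.84 and 7.78 RPKM in control with CDH5 at 0.06 RPKM or less. Most of that sum was TIE1, at 8.41 to 10.5 RPKM in PA and 5.32 to 6.15 RPKM in control, called as higher (0.70). Leukocyte markers summed to between 65.6 and 76.3 RPKM in PA and between 43.8 and 55.1 RPKM in control with PTPRC at 0.03 RPKM or less. Most of that was CD68, at 59.7 to 70.2 RPKM in PA and 40.4 to 51.7 RPKM in control and not called (0.45), while CD14 was called as higher (0.72). These sums moved with the groups and their part in the clock gene values was not tested. All libraries are labelled as AC16 cells, and bulk RNA cannot tell a shift among the cells of the line from a change of RNA per cell.

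Promoter sequence was read for all 10 genes from RefSeq (GRCh38.p14; ARNTL under its current symbol BMAL1), in 14 windows from 250 bases before to 50 bases after a transcript start. The motifs searched on both strands were the E-box CACGTG, its variant CACGTT, the D-boxes TTATGTAA and TTACGTAA, the ROR element cores TAGGTCA and TGGGTCA, and the CRE TGACGTCA; none of these letters is contained in another motif of the set. Positions count from 1 at the start, with negative numbers before it. The stretches below show the gene that rose (DBP), the gene with the most E-boxes (CIART) and single sites of the loop, with motif letters in capitals.
DBP, chr19:48637380-48637479, minus strand, positions -100 to -1: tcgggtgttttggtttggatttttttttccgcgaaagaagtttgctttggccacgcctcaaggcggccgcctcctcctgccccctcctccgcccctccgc
CIART, chr1:150282414-150282513, plus strand, positions -140 to -41: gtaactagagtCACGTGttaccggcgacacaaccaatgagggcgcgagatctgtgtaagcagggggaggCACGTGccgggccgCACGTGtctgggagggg
PER1, chr17:8152561-8152588, minus strand, E-box at -173: gcacccaggtcCACGTGcgcccgtgtgt
PER2, chr2:238288791-238288818, minus strand, E-box variant at -197: gcgcgcgcggtCACGTTttccactatgt
PER2, chr2:238288595-238288624, minus strand, D-box at -3: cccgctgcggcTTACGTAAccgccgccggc
PER3, chr1:7784103-7784132, plus strand, D-box at -177: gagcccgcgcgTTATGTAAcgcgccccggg
NR1D1, chr17:40100741-40100768, minus strand, E-box variant read on the other strand at -168: cgcaagagctcAACGTGccggctgttgg
ARNTL, chr11:13277809-13277837, plus strand, ROR element core at 31: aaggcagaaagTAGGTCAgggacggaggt

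CIART held 3 E-boxes and PER1 1, and 5 further genes (CLOCK, PER2, CRY1, CRY2 and NR1D1) held the variant. Over all 35116 promoter windows, 7.26% held the E-box and 5.34% the variant. The units differ: clock genes are counted per gene, with 14 windows for 10 genes, and the shares over all promoters are per window. D-boxes stood in PER2 and PER3, against 1.01% of all windows, and ROR element cores in ARNTL, CLOCK and CRY2, against 5.69%. No CRE stood in the clock gene windows, against 1.85% of all windows. The DBP window held none of these letters, which says nothing of sites elsewhere in the gene; in mouse, sites bound by CLOCK and ARNTL are also known inside introns of Dbp.

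Of the activators, CLOCK encodes the larger partner of the pair. It was at 7.6, 5.75 and 4.47 RPKM in PA 1, 2 and 3, and at 8.02, 6.12 and 8.84 RPKM in control 1, 2 and 3. The groups overlapped, with PA 3 the lowest and control 3 the highest library. The log2 fold change was -0.33 ± 0.20 (SE; 95% interval -0.78 to 0.12; limma adjusted p = 0.32), and it lay between -0.50 (without PA 1) and -0.17 (without PA 3) when 1 library was left out. ARNTL, its partner and the one single gene whose loss alone stops the mouse clock, was at 11.8, 10.4 and 10.4 RPKM in PA libraries and at 10.3, 9.88 and 11.2 RPKM in control libraries. The values were interleaved, and the log2 fold change was 0.048 ± 0.11 (95% interval -0.21 to 0.30; limma adjusted p = 0.814). Within the libraries ARNTL exceeded CLOCK by 0.90 ± 0.30 log2 units in PA and 0.47 ± 0.20 in control, with overlapping groups. With a trend over transcript length and GC removed from each library, the log2 fold change was -0.19 for CLOCK and 0.12 for ARNTL.

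The PER genes encode the repressors that respond most directly to outside signals. PER1 was at 23.5, 21.0 and 15.4 RPKM in PA 1, 2 and 3, and at 13.6, 15.7 and 15.6 RPKM in control 1, 2 and 3. PA 1 and PA 2 stood above every control library, while PA 3 lay within the control range. The log2 fold change was 0.38 ± 0.16 (95% interval 0.0061 to 0.75), with an unadjusted p of 0.0471 and a limma adjusted p of 0.187. With 1 library left out it lay between 0.26 without PA 1 (limma adjusted p = 0.339) and 0.54 without PA 3 (limma adjusted p = 0.0563). PER2, a core repressor needed for lasting rhythms in mouse, was the lowest clock gene, at 1.58, 1.39 and 1.11 RPKM in PA libraries and at 1.58, 1.31 and 1.28 RPKM in control libraries. The highest values were equal in both groups and the log2 fold change was -0.021 ± 0.15 (95% interval -0.38 to 0.34). PER3, a paralog with a smaller part in the core loop, was at 4.25, 4.2 and 3.23 RPKM in PA libraries, against 4.39, 3.27 and 3.66 RPKM in control libraries, and its log2 fold change was 0.036 ± 0.15 (95% interval -0.31 to 0.38). Neither passed (limma adjusted p = 0.947 for PER2 and 0.904 for PER3).

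Set against PER2 in the same library, which takes out any scaling of the library, PER1 was higher in PA. The log2 ratio of PER1 to PER2 was 3.89, 3.92 and 3.8 in PA 1, 2 and 3, and 3.11, 3.58 and 3.6 in control 1, 2 and 3. The groups did not overlap, and the mean difference was 0.44, or 0.28 without control 1, the lowest library. PER2 lay at only 1.11 to 1.58 RPKM. The ratio does not take out a trend over length and GC. With such a trend removed from each library, the log2 fold change was 0.37 for PER1 and 0.095 for PER2, against 0.38 and -0.021. The ratio of PER3 to PER2 averaged 1.52 ± 0.086 in PA and 1.44 ± 0.10 in control, with overlapping groups. These ratios are descriptions without a test.

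CRY1 and CRY2 encode the partners of the PER proteins that carry most of the repression. CRY1 was at 12.1, 9.85 and 14.5 RPKM in PA 1, 2 and 3, and at 14.6, 14.6 and 15.4 RPKM in control 1, 2 and 3. Every PA library was under every control library, PA 3 only just, and the PA libraries were spread more widely (SD 2.33 RPKM in PA and 0.45 RPKM in control). The log2 fold change was -0.29 ± 0.14 (95% interval -0.62 to 0.040; limma adjusted p = 0.242). It was -0.16 without PA 2 and -0.42 without PA 3, the ends of the range with 1 library left out. CRY2 was at 4.66, 3.83 and 4.12 RPKM in PA libraries, inside the span of 3.08 to 5.57 RPKM of control libraries, with a log2 fold change of -0.0035 ± 0.19 (95% interval -0.43 to 0.42; limma adjusted p = 0.992). With DBP, CRY1 made 2 of 10 clock genes whose groups did not overlap, where 32.6% of all genes tested had groups that did not overlap.

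CIART encodes a repressor that acts on the CLOCK and ARNTL pair beside the CRY proteins. With the 3 E-boxes printed above, it was at 4.77, 5.58 and 5.28 RPKM in PA libraries and at 4.75, 6.21 and 4.42 RPKM in control libraries. Control libraries held both the highest and the lowest value, and the log2 fold change was 0.029 ± 0.14 (95% interval -0.30 to 0.36; limma adjusted p = 0.921). NR1D1 encodes REV-ERB alpha, the heme-binding receptor that represses ARNTL. It was at 15.7, 15.9 and 11.6 RPKM in PA 1, 2 and 3, and at 12.7, 11.3 and 9.65 RPKM in control 1, 2 and 3. PA 1 and PA 2 were above the control libraries and PA 3 within them, as for PER1. The log2 fold change was 0.33 ± 0.16 (95% interval -0.036 to 0.69; limma adjusted p = 0.232). With 1 library left out it lay between 0.23 without control 3 (limma adjusted p = 0.481) and 0.47 without PA 3 (limma adjusted p = 0.0936). Exons of NR1D1 overlap those of THRA, a thyroid hormone receptor gene on the opposite strand, over 263 nt in GENCODE 29. THRA was at 17.8, 16.4 and 11.5 RPKM in PA libraries and at 16.7, 15.3 and 13.5 RPKM in control libraries, and the groups overlapped. The labels do not say whether strand was used in counting, so reads of the pair may not be separable.

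**Figure D2:**
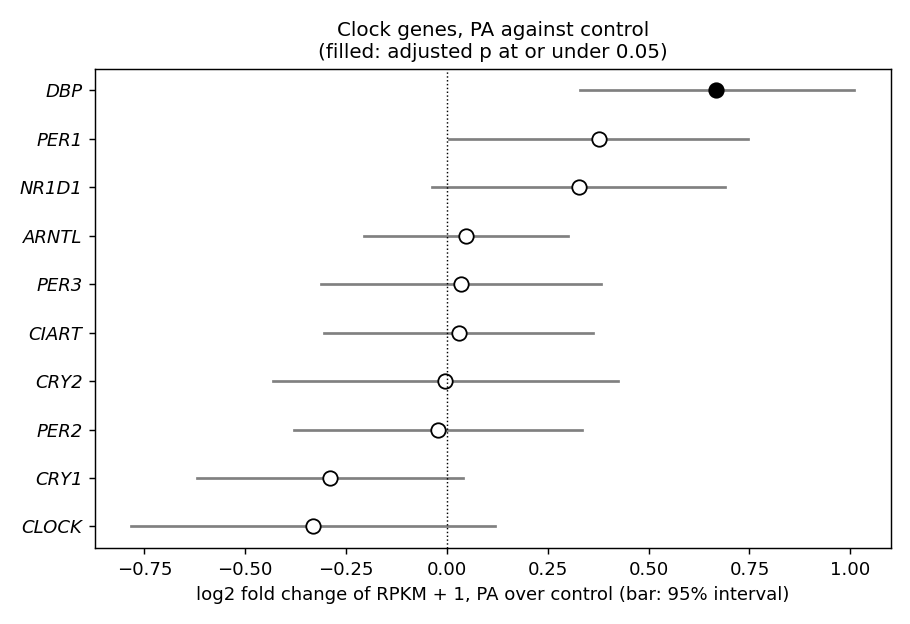
Log2 fold change of RPKM + 1, PA over control, for each clock gene, ordered by value, with its 95% interval from limma; a filled point marks an adjusted p at or under 0.05. DBP at 0.67 is filled, and of the open points only the interval of PER1, from 0.0061 to 0.75, does not cross 0.

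DBP encodes a transcription factor of the PAR bZIP family that relays the clock to metabolic genes. It was at 3.83, 4.5 and 4.97 RPKM in PA 1, 2 and 3, and at 2.34, 2.84 and 2.09 RPKM in control 1, 2 and 3. Each PA library was above each control library. The log2 fold change was 0.67 ± 0.15 (95% interval 0.33 to 1.01) with a limma adjusted p of 0.0457, higher than in 97.1% of the genes tested. The pseudocount of 1 holds this value down for a gene of few RPKM, and with a pseudocount of 0.1 it was 0.85. The call was lost in each of the 6 fits that left out 1 library, where the log2 fold change stayed between 0.60 and 0.75 and the limma adjusted p lay between 0.0591 and 0.165. It was also lost with values rescaled to a common sum (0.59, limma adjusted p = 0.0611) and without the filter on low values (limma adjusted p = 0.121). The fit with the replicate number as a block lost it too (limma adjusted p = 0.0777).

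DBP has a short and GC-rich transcript, with a median of 1100.5 nt and 63.5% GC over its protein-coding transcripts in the basic GENCODE 29 set. The 502 protein-coding genes tested that have above 60% GC and at most 1500 nt had a median log2 fold change of 0.32, while the median of all genes tested was -0.019. With a trend over length and GC removed from each library, DBP was at 0.44 and passed (limma adjusted p = 0.0285), while that fit called 2242 genes in all. Exons of DBP overlap those of SPHK2, a sphingosine kinase gene on the opposite strand, over 661 nt. SPHK2 was at 5.81, 6.49 and 4.79 RPKM in PA libraries, against 8.35, 9.02 and 6.63 RPKM in control libraries. Each PA library was under each control library, PA 2 only just under control 3, so that SPHK2 lay lower where DBP lay higher. How reads of the overlap were assigned is not stated in the labels. Other overlaps were short or with genes of low level: PER1 shares 30 nt with AC129492.4 on the same strand, CLOCK shares 76 nt with TMEM165 on the opposite strand, and the antisense gene over 482 nt of PER3 was at 0.26 RPKM or less.

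**Figure D3:**
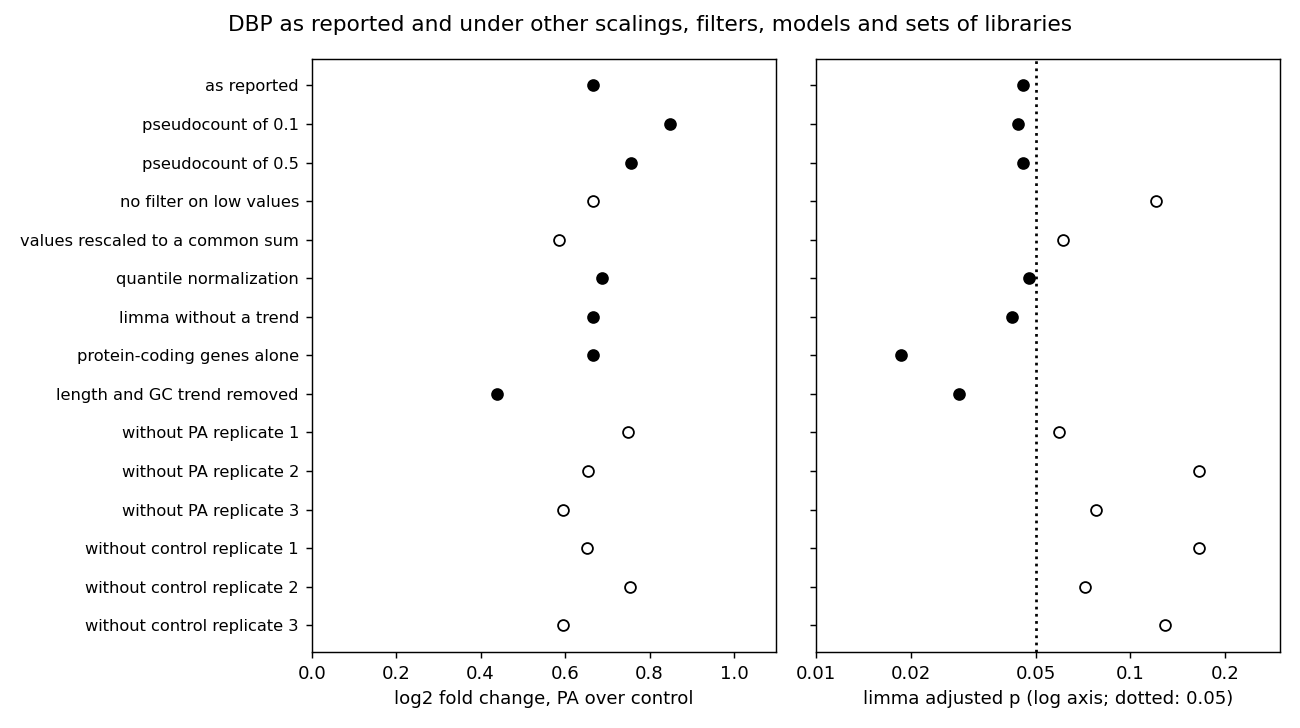
Log2 fold change of DBP (left) and its limma adjusted p on a log axis (right), as reported and with other pseudocounts, filters, scalings, variance models and sets of libraries; filled points have an adjusted p at or under 0.05. All fold changes lie between 0.44 and 0.85, and the points without 1 library, from 0.0591 to 0.165, are right of the dotted line at 0.05. The fit with the replicate number as a block (0.67, limma adjusted p = 0.0777) is not drawn.

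Within the libraries, DBP was also set against ARNTL. The log2 ratio of DBP to ARNTL was -1.62, -1.21 and -1.07 in PA 1, 2 and 3, and -2.14, -1.8 and -2.42 in control 1, 2 and 3, without overlap. The mean difference was 0.82, and between 0.67 and 0.98 with 1 library left out. With a pseudocount of 1 it was 0.62. The ratio takes out the scaling of a library but not a trend over length and GC. With that trend removed, the log2 fold change was 0.44 for DBP and 0.12 for ARNTL. The ratio of NR1D1 to ARNTL averaged 0.39 ± 0.23 in PA and 0.094 ± 0.27 in control, with overlap, and that of PER2 to ARNTL -3.01 ± 0.19 in PA and -2.92 ± 0.21 in control. Among paralogs of DBP, TEF was at 2.91, 2.6 and 2.17 RPKM in PA libraries and at 2.47, 2.41 and 2.08 RPKM in control libraries (log2 fold change 0.097, limma adjusted p = 0.698), and HLF was at 0.05 RPKM or less in each library. The log2 ratio of DBP to TEF, chosen after the values were seen, was 0.79 ± 0.40 in PA and 0.055 ± 0.16 in control, without overlap. The ratio of CRY2 to CRY1 averaged -1.52 ± 0.26 in PA and -1.83 ± 0.47 in control.

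**Figure D4:**
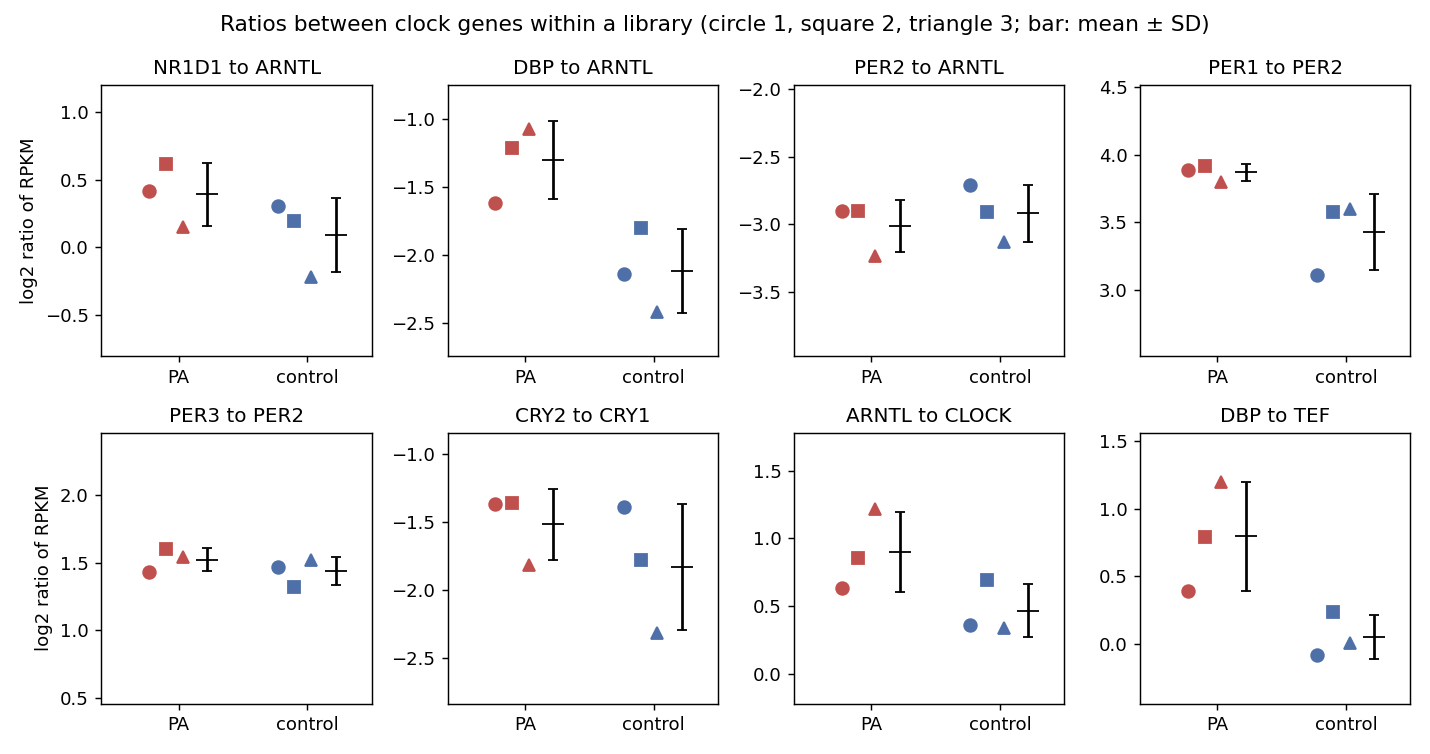
Log2 ratio of RPKM between pairs of clock genes within each library, PA on the left and control on the right; each panel spans 2 log2 units, symbols mark the library number and bars give the mean ± SD over 3 libraries. DBP to ARNTL, PER1 to PER2 and DBP to TEF are the panels in which the groups do not overlap, the first with means of -1.30 in PA and -2.12 in control.

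The order of the levels, all per length, was much the same in both groups. In PA libraries PER1 had the highest mean (20.0 RPKM), followed by NR1D1 (14.4), CRY1 (12.1), ARNTL (10.9), CLOCK (5.94), CIART (5.21), DBP (4.43), CRY2 (4.20), PER3 (3.89) and PER2 (1.36). The ranges of neighbours overlapped except between ARNTL and CLOCK and between PER3 and PER2. In control libraries the order was PER1 (15.0), CRY1 (14.9), NR1D1 (11.2), ARNTL (10.5), CLOCK (7.66), CIART (5.13), CRY2 (4.30), PER3 (3.77), DBP (2.42) and PER2 (1.39), where the ranges were apart between CRY1 and NR1D1, between ARNTL and CLOCK, and between DBP and both of its neighbours. DBP was thus ninth in control and seventh in PA, where it overlapped CIART and CRY2.

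The genes nearest to DBP in pattern were RNASEH2A, a subunit of an enzyme that cuts RNA from DNA, CHMP2A, a membrane remodelling protein, and YBX3, an RNA-binding protein. Likeness was the root mean square distance between log2(RPKM + 1) values centred on each gene's mean over the 6 libraries, and it was 0.0229, 0.0289 and 0.0302 for these genes, against a median of 0.407 over all genes tested. Genes picked as the nearest of all lie under such a median by construction. The pseudocount of 1 also narrows the spread of DBP more than that of genes with higher levels. RNASEH2A was at 112.8, 127.1 and 141.4 RPKM in PA libraries and at 80.3, 92.4 and 73.1 RPKM in control libraries, the same order of libraries as DBP. Nearest to ARNTL were TRAPPC11, CCDC6 and PTK2, at distances of 0.0196, 0.02 and 0.0216 against a median of 0.211. None of these belongs to the clock lists.

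Genes linked to the clock were grouped in 6 lists of 77 entries, of which 76 had a row and 66 were tested. Of these 66, 6 were called, 3 as higher and 3 as lower, where 4.81% of all genes tested were called. The count was between 0 and 2 in the fits that left out 1 library, and 12 with the length and GC trend removed. Among cofactors of the clock proteins 2 of 13 were called, both as lower, and the median log2 fold change was -0.14, with 11 of 13 negative. Of all 14159 genes tested, 7429 were negative. Fold changes also varied with transcript length, with a median of -0.145 in the class of the longest protein-coding genes (2823 genes). Whether the cofactor median differs from that of genes of like length was not tested. SFPQ encodes an RNA-binding protein found in PER complexes and was at 66.7, 70.6 and 79.2 RPKM in PA libraries, against 143.5, 150.02 and 165.9 RPKM in control libraries. All PA libraries were far under all control libraries, and the log2 fold change was -1.08 ± 0.11 (limma adjusted p = 0.0073), past the threshold in 4 of the 6 fits that left out 1 library and at 0.0628 and 0.0621 without PA 2 and without control 1. Its relative NONO, also found with PER proteins, was at -0.17 and did not pass (limma adjusted p = 0.281). THRAP3, a coactivator of CLOCK and ARNTL, fell to 34.7 ± 5.35 RPKM in PA, against 55.5 ± 5.73 RPKM in control (log2 fold change -0.67, limma adjusted p = 0.0421), and lost its call in each of those 6 fits. The acetyltransferase genes EP300 and CREBBP were at -0.67 and -0.66 and did not pass (limma adjusted p = 0.18 for EP300 and 0.164 for CREBBP), with PA 3 the lowest library in both.

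Of the further loop factors 0 of 10 tested were called by limma, and 1, RORA, had an unadjusted p under 0.05, as 25.9% of all genes tested had. RORA activates ARNTL through the elements that NR1D1 blocks. It was at 1.88, 1.48 and 1.48 RPKM in PA libraries and at 0.71, 1.34 and 0.78 RPKM in control libraries. The groups did not overlap, as in 32.6% of all genes tested. The log2 fold change was 0.44 ± 0.18 (limma adjusted p = 0.172). Its mean was 1.61 RPKM in PA but 0.943 RPKM in control, under the limit of 1 RPKM. RORA thus entered the test only through its PA values. TIPIN, a replication fork protein and partner of TIMELESS, was at -0.19 (limma adjusted p = 0.557). Paralogs of the clock genes, named after their values were seen, did not pass either. NPAS2, which can stand in for CLOCK, was at -0.17 (limma adjusted p = 0.693), ARNTL2 at 0.016 (0.968) and NR1D2 at -0.12 (0.584). The list had a median of 0.029 over its tested members.

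Among enzymes that modify clock proteins, 0 of 19 tested were called by limma and 2 had an unadjusted p under 0.05, where the share over all genes tested was 25.9%. PRKAA1, the AMPK subunit that marks CRY1 for breakdown, was at 62.4 ± 9.56 RPKM in PA and 89.1 ± 17.2 RPKM in control (log2 fold change -0.50, limma adjusted p = 0.119). CSNK2B, the regulatory subunit of casein kinase II, was at 364.9 ± 6.37 RPKM in PA and 284.9 ± 33.9 RPKM in control (0.36, limma adjusted p = 0.0973). The PER kinases CSNK1D and CSNK1E lay at -0.18 and 0.19 and did not pass. The median of this list was 0.0023.

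The regulators that carry signals to PER1 and PER2 had 0 of 8 called by limma and 1 with an unadjusted p under 0.05, beside 25.9% of all genes tested. That gene was NR3C1, the glucocorticoid receptor, at 12.7, 11.9 and 11.2 RPKM in PA libraries and at 16.3, 15.1 and 19.3 RPKM in control libraries, without overlap (log2 fold change -0.47 ± 0.12, limma adjusted p = 0.0662). CRTC1, a coactivator of CREB, was at -0.32 (limma adjusted p = 0.226). Of 6 tested glucocorticoid response genes 3 were called, beside 4.81% of all genes tested. The list is short and was chosen with earlier results of these data known. The count is therefore no result about the response as a set. FKBP5, a co-chaperone of that receptor, rose to 52.9 ± 3.73 RPKM in PA, against 37.9 ± 2.69 RPKM in control (0.47, limma adjusted p = 0.0493), and ERRFI1, an inhibitor of the EGF receptor, rose to 74.1 ± 1.64 RPKM, against 54.1 ± 2.67 RPKM in control (0.45, limma adjusted p = 0.0409). CRISPLD2, a secreted protein, fell to 2.59 ± 0.464 RPKM in PA, against 5.08 ± 0.412 RPKM in control (-0.77, limma adjusted p = 0.0338). All 3 calls were lost in each fit that left out 1 library, without the filter on low values and with the replicate number as a block. FKBP5 and ERRFI1 were also not called after rescaling to a common sum (limma adjusted p = 0.143 and 0.11). With quantile normalization they were not called either (limma adjusted p = 0.0543 and 0.0541). CRISPLD2 stayed called in both (limma adjusted p = 0.0405 and 0.0269). DUSP1, a phosphatase of MAP kinases, was at 0.49 with a limma adjusted p of 0.0514, and TSC22D3, a classical target, at 0.20 (limma adjusted p = 0.409). SGK1 was at -0.034 (limma adjusted p = 0.91). The list median was 0.32, with 4 of 6 positive, while 47.5% of all genes tested were positive.

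Genes known as clock-controlled in other tissues had 10 tested members of 15, with a median of 0.15. CDKN1A, the cell cycle inhibitor p21, was the 1 call of these 10, beside 4.81% of all genes tested. A single call among so few genes is near that share. CDKN1A was at 138.5, 132.0 and 124.6 RPKM in PA libraries and at 97.0, 93.9 and 84.9 RPKM in control libraries. Its log2 fold change was 0.51 ± 0.10 (limma adjusted p = 0.0352). With 1 library left out, it passed in 1 of 6 fits. CDKN1A was not called after rescaling to a common sum (limma adjusted p = 0.0729) or with quantile normalization (0.0503). Nor was it called without the filter on low values (0.0742) or with the replicate number as a block (0.063). It stayed called in the other settings run at this threshold with all 6 libraries. NAMPT, the rate-limiting enzyme of the NAD salvage pathway, was at 0.26 (limma adjusted p = 0.198) and WEE1, a kinase that holds back mitosis, at -0.26 (0.234). The heart output genes KLF15 and KCNIP2 did not reach a mean of 1 RPKM and were not tested.

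**Figure D5:**
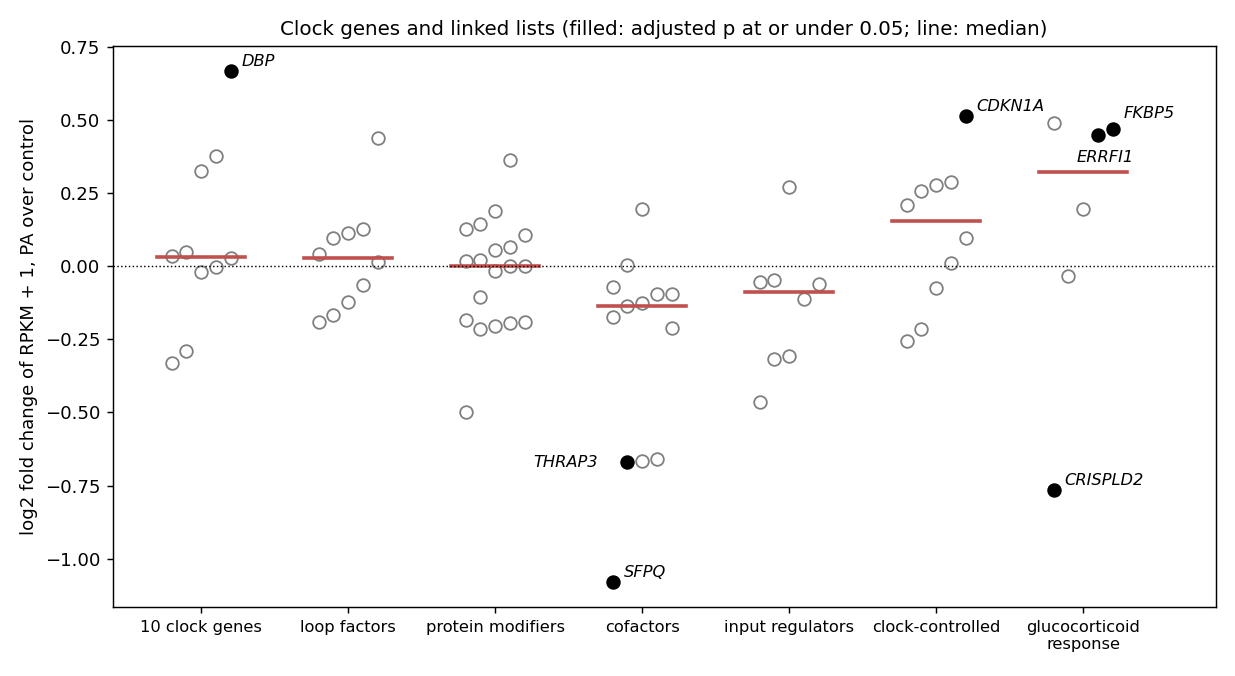
Log2 fold change of RPKM + 1, PA over control, for the 10 clock genes and for the tested members of the 6 linked lists; each point is a gene, filled where the adjusted p is at or under 0.05, and the line is the list's median. The filled points are DBP, SFPQ, THRAP3, CDKN1A, FKBP5, ERRFI1 and CRISPLD2, and the medians run from -0.14 in the cofactors to 0.32 in the glucocorticoid response genes.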

How the data were processed

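RNA of 6 AC16 libraries was measured as RPKM, deposited by the authors per gene with 2 decimals. Per the submitters' processing notes, which give no roles, the tools included HISAT2, StringTie, RSEM, fastp and FastQC, with hg19 as build. How gene models, strand and shared reads were handled is not stated there. Rows were joined by Ensembl identifier and annotated with GENCODE 29, which is on another build, so no coordinates of the counted genes are given. Genes averaging 1 RPKM or more over the 6 libraries (14159) entered 1 two-sided limma fit of log2(RPKM + 1) (limma 3.58.1, R 4.3.3, moderated with a mean-variance trend), with Benjamini-Hochberg adjustment over all of them; the code was tested on simulated data. Depth is unknown, so no counting intervals are given. Members and lists were chosen with earlier results of these data known. Named were all members, up to 4 called genes per list or the 2 with the largest absolute fold change where none was called, and 3 genes nearest to DBP and to ARNTL; further genes are named as relatives of the members or after their values were seen. Alternatives covered pseudocount, filter, scaling, variance model, library number as a block, gene type, a length and GC trend (splines with 4 degrees of freedom), a threshold of 0.01 and each library left out.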

Additional observations from a re-analysis of the deposited data

How the results depend on the processing

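The 1 call among the 10 clock genes (DBP) became 0 without the filter on low values, with a mean of at least 5 RPKM (which leaves DBP out), with values rescaled to a common sum and at a threshold of 0.01. It ranged from 0 to 0 over the fits that left out 1 library, and was 1 with pseudocounts of 0.1 and 0.5, quantile normalization, no trend, protein-coding genes alone and the length and GC trend removed; the fit with a block is given below. The 6 calls in the wider lists became 1 without the filter, 2 after rescaling, 3 without the trend, 12 with the length and GC trend removed, 1 at a threshold of 0.01 and 0 to 2 without 1 library. Over all genes the 681 calls became 72 without the filter, 1157 among protein-coding genes alone, 2242 with the trend removed, 29 at a threshold of 0.01 and 10 to 364 without 1 library; rescaling moved the all-gene median to -0.11 (log2), from -0.019, with 207 higher and 324 lower calls against 402 and 279. Clock genes near 0 had no stable sign: ARNTL was at -0.05, PER3 at -0.049 and CIART at -0.06 after rescaling, PER2 at 0.0067 and CRY2 at 0.025 with quantile normalization, CRY2 at 0.002 with a pseudocount of 0.1, and PER2 at 0.095, CRY2 at 0.0026 and CIART at -0.058 with the trend removed. Without 1 library ARNTL ranged from -0.0068 to 0.093, PER2 from -0.088 to 0.057, PER3 from -0.041 to 0.14, CRY2 from -0.18 to 0.17 and CIART from -0.054 to 0.15. DBP, PER1, NR1D1, CLOCK and CRY1 kept their sign in all settings run. Where no construction of a setting shows it, the cause was not tested.

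With the replicate number as a block, 0 clock genes (DBP at an adjusted p of 0.0777), 1 gene of the wider lists and 98 of all genes passed. Deviations of same-numbered libraries correlated at 0.157, -0.0144 and 0.0371, and 1 of 3 PA libraries correlated best with its own number, so the numbers do not show a pairing. Depth is unknown, so the counting error of low genes such as PER2 and DBP cannot be given.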
